A study of Rattus norvegicus with 35 samples.

Results

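The small RNAs most often used as references for microRNA levels were measured on the same arrays as the microRNAs of the rat spinal cord, and their own behaviour after contusion is described here. They are the probes for U6 small nuclear RNA, for 5S ribosomal RNA and for box C/D small nucleolar RNAs (snoRNAs). They were taken by name as every probe that was no blank, spike-in, negative control, microRNA or let-7 probe. This gave 26 names of 1766, each printed as 4 spots. Of these, 4 names were U6 probes, 2 were 5S ribosomal RNA probes and 20 were snoRNA probes. The array held no probe named SNORD87.

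U6 is the catalytic core RNA of the spliceosome and is transcribed by RNA polymerase III, as is 5S ribosomal RNA, a component of the large ribosomal subunit. Many box C/D snoRNAs guide 2'-O-methylation of ribosomal RNA, while U3 (the SNORD3 family), U8 (SNORD118) and U14 (SNORD14) take part in cutting the ribosomal RNA precursor. In vertebrates most guide snoRNAs are released from introns of host genes, many of them for ribosomal proteins and translation factors. In the RefSeq annotation of the rat (GRCr8), 15 of the 20 snoRNA probe names had a gene of the same symbol. Snord2 lay within Eif4a2, a translation initiation factor gene. A reference of this kind is subtracted from a microRNA on the log scale, so that a change in the reference appears with the opposite sign in every microRNA set relative to it.

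Total RNA came from thoracic spinal cord (T8) of 35 female Wistar rats, and each animal had 1 array. Injured animals received a laminectomy and a contusion of 200 kdyne and were sampled at 1, 3 or 7 days (LS1, LS3, LS7). Sham animals received the laminectomy alone and were sampled at the same days (SH1, SH3, SH7), and control animals (CT) had no surgery. Each of the 7 groups held 5 animals, all of them adult. The piece of cord holds all its cell types, so fewer cells of a type and less RNA per cell cannot be told apart. Among microRNA lists, the 3 neuronal (miR-124, miR-9, miR-128), 2 oligodendrocyte (miR-219-5p, miR-338-3p) and 2 posterior neural (miR-10a-5p, miR-10b) markers were all detected, as were 2 of 3 muscle, 2 of 2 erythrocyte and 2 of 2 myeloid microRNAs.

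Values are given on the log2 scale of variance stabilization normalization (VSN), fitted on the microRNA spots without the reference small RNAs. A name was detected when its spots exceeded the negative controls by 2 SD in at least 3 of 5 animals of a group, and 816 names were. The LS7 arrays stood apart from the rest: the detected spots had a median signal 9.28 ± 2.66-fold above the negative-control SD, against 16.6 ± 2.27 in SH7 (SD, n = 5 each), and the other groups averaged between 12.9 and 15.9. The scanner files of LS7 replicate 4 and SH7 replicate 1 followed their columns of the deposited table less closely than the others (Spearman correlation 0.912 and 0.938 over spots, against 1.0), so results at day 7 are also given without this pair of arrays.

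The microRNAs set relative to the references below were miR-21, a microRNA induced in many injured tissues, and miR-124, which is abundant in neurons. The mature miR-21 sequence in RefSeq lies on the minus strand of chromosome 10 (GRCr8), chr10:71902653-71902674. It is shown because its change after contusion is set against every reference below, and its seed (bases 2 to 8) is in capitals.
rno-miR-21-5p: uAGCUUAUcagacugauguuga

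Among the reference probes, 13 of the 26 names were detected, and 6 of them on all 35 arrays. Those on all arrays were U6-snRNA-1, U6-snRNA-2, 5SrRNA-5, hsa_SNORD2, hsa_SNORD13 and hsa_SNORD3@. The other detected names were U6B-5 (34 arrays), SNORD38B-5 and hsa_SNORD14B (33 arrays each), SNORD48-5 (30), SNORD44-5 (24), hsa_SNORD6 (20) and hsa_SNORD12 (17). The names ending in -3 and -5 are separate probes for 1 RNA, and the meaning of the endings is not given in the sources used here. For U6B, 5S ribosomal RNA, SNORD38B, SNORD44 and SNORD48 the probe ending in -5 was detected and the one ending in -3 was not. U6B-5, for example, had a median background-subtracted intensity of 484 over the 35 arrays, and U6B-3 one of 17.5. The remaining names without detection were SNORD49A-3, SNORD49A-5, SNORD66-3, SNORD66-5, hsa_SNORD4A, hsa_SNORD10, hsa_SNORD15A and hsa_SNORD118. The 13 names not detected were above the negative controls on 0 to 8 arrays each, and give no level here. In LS7, SNORD44-5, SNORD48-5 and hsa_SNORD12 were each above background on 1 of 5 arrays, so their LS7 means rest mostly on signals near the background. SNORD38B-5, hsa_SNORD14B and hsa_SNORD6 were each above background on 3 of 5 LS7 arrays, so their LS7 means rest partly on such signals.

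**Figure D1:**
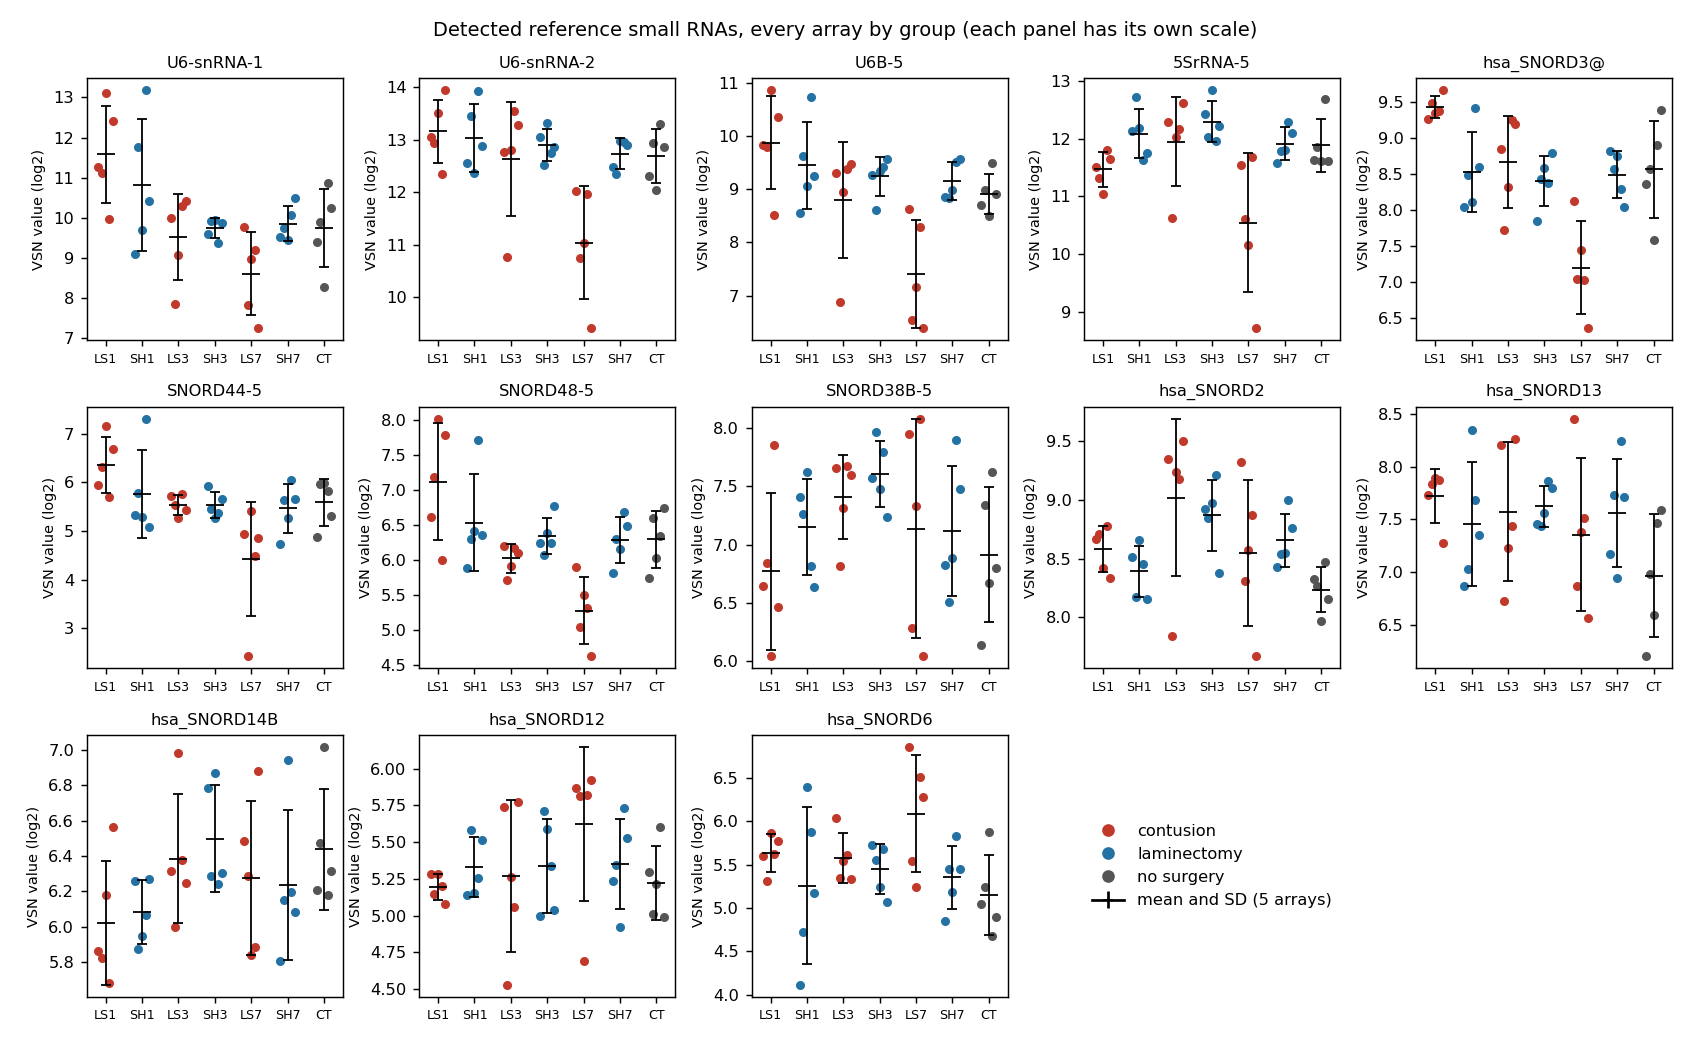
VSN value (log2) of each of the 13 detected reference small RNAs on every array, by group; points are animals, and the bar and whiskers are the mean and SD of 5 arrays. The 3 U6 probes, 5SrRNA-5 and hsa_SNORD3@ have their lowest group mean in LS7, whereas hsa_SNORD2, hsa_SNORD13 and hsa_SNORD14B stay within 0.78, 0.75 and 0.48 of each other across the 7 group means.

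With VSN the U6 probes had the largest SD over the 35 arrays. U6-snRNA-1 read 11.27, 11.12, 13.11, 9.98 and 12.40 in LS1, against 9.08, 11.76, 9.69, 13.18 and 10.41 in SH1. Both day 1 groups thus spread over more than 3 units on the log2 scale and overlapped fully. In LS3 it read 9.99, 7.84, 9.06, 10.29 and 10.40, against 9.59, 9.91, 9.94, 9.38 and 9.87 in SH3. Replicate 2 of LS3 was the lowest, and the SH3 animals lay within 1 unit of each other. In LS7 it read 9.77, 7.83, 8.96, 9.20 and 7.25, against 9.51, 9.75, 9.44, 10.08 and 10.48 in SH7. CT animals read 9.40, 9.89, 8.28, 10.87 and 10.25. LS7 replicate 1 reached the sham range and the other LS7 animals lay below it.

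U6-snRNA-2, the brightest reference, was tighter. It read 12.02, 10.75, 11.04, 11.97 and 9.42 in LS7, against 12.49, 12.35, 12.97, 12.96 and 12.89 in SH7. All LS7 animals lay below all SH7 animals, and also below the CT animals, which read 12.30, 12.93, 12.04, 13.29 and 12.87. At day 1 it averaged 13.16 ± 0.60 in LS1 and 13.04 ± 0.65 in SH1, and at day 3 12.63 ± 1.09 in LS3 and 12.89 ± 0.31 in SH3 (SD, n = 5 each). U6B-5 gave 8.62, 6.54, 7.17, 8.30 and 6.40 in LS7, against 8.86, 8.83, 8.99, 9.52 and 9.56 in SH7, again with no overlap. Across the 35 arrays the difference between U6B-5 and U6-snRNA-2 had an SD of 0.35, the smallest of the 78 pairs of detected references. U6-snRNA-1 departed from U6-snRNA-2 on some arrays at day 1: on the arrays LS1 replicate 3 and SH1 replicate 4, which read 13.11 and 13.18 for U6-snRNA-1, U6-snRNA-2 read 13.51 and 13.93. In SH7 the same probes averaged 9.85 ± 0.43 and 12.73 ± 0.29 (SD, n = 5).

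5SrRNA-5 read 11.54, 10.61, 10.16, 11.69 and 8.72 in LS7, against 11.57, 11.78, 11.81, 12.29 and 12.11 in SH7. The other groups averaged between 11.47 and 12.30. LS7 replicate 5 was the lowest of all 35 arrays for 5SrRNA-5, and also for the detected U6 probes, SNORD38B-5, SNORD48-5, hsa_SNORD2 and hsa_SNORD3@. This array had a green-channel scanner gain of 720, a negative-control SD of 67.0 and 99 saturated spots, 0 of them on references. The gain was 600 to 720 in LS7 and 550 to 610 in SH7. Its part in these values was not tested.

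Among the snoRNAs, the U3 probe hsa_SNORD3@ had the widest range of group means. It was high and even in LS1, at 9.27, 9.48, 9.35, 9.37 and 9.66, against 8.03, 8.48, 8.10, 9.41 and 8.60 in SH1. Only SH1 replicate 4 reached the LS1 range. In LS7 it read 8.12, 7.03, 7.44, 7.03 and 6.36, against 8.81, 8.56, 8.75, 8.29 and 8.04 in SH7, and the 2 groups overlapped through LS7 replicate 1 and SH7 replicate 5. CT animals read 8.36, 8.57, 7.59, 8.90 and 9.39. SNORD44-5 and SNORD48-5, methylation guides in common use as PCR references, also had their highest mean in LS1 (6.36 ± 0.58 and 7.12 ± 0.83) and their lowest in LS7 (4.42 ± 1.17 and 5.28 ± 0.48; SD, n = 5 each). SNORD48-5 had its 3 highest values, 8.01, 7.79 and 7.71, on LS1 replicates 3 and 5 and SH1 replicate 4, the arrays with the 3 highest values of U6-snRNA-1.

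The other snoRNAs did not pass the test over the 7 groups. hsa_SNORD2 read 9.33, 8.31, 8.57, 8.87 and 7.67 in LS7, against 8.43, 8.54, 8.54, 9.0 and 8.76 in SH7. CT animals read 8.32, 8.27, 7.97, 8.47 and 8.15. The LS7 animals lay on both sides of the sham and control animals. hsa_SNORD13, the U13 RNA, averaged 7.36 ± 0.72 in LS7, 7.56 ± 0.51 in SH7 and 6.97 ± 0.58 in CT (SD, n = 5 each). SNORD38B-5 averaged 7.14 ± 0.94 in LS7 and 7.12 ± 0.56 in SH7. hsa_SNORD6 was the only detected reference with its highest group mean in LS7 beside hsa_SNORD12: it read 6.85, 5.54, 5.24, 6.51 and 6.28 in LS7, against 4.85, 5.45, 5.18, 5.83 and 5.45 in SH7.

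Over the 7 groups, limma's F test with Benjamini-Hochberg adjustment over the 816 names called 7 of the 13 detected references: hsa_SNORD3@ (adjusted p = 0.000135), SNORD48-5 (0.000996), U6B-5 (0.00105), U6-snRNA-2 (0.00146), U6-snRNA-1 (0.00258), 5SrRNA-5 (0.00393) and SNORD44-5 (0.00809). The share of all names called was 64.8%, so the references were not called more often than the microRNAs around them. The 6 not called were hsa_SNORD2 (adjusted p = 0.135), hsa_SNORD6 (0.17), SNORD38B-5 (0.373), hsa_SNORD13 (0.441), hsa_SNORD14B (0.478) and hsa_SNORD12 (0.727).

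At day 7, contusion against sham, limma called 6 of the 13 references lower in LS7 and 0 higher, where 54.0% of all names were called lower, 6.13% higher and 60.2% in either direction. U6B-5 differed by -1.75 ± 0.42 (log2, ± SE; adjusted p = 0.00366), U6-snRNA-2 by -1.69 ± 0.43 (0.00478), 5SrRNA-5 by -1.37 ± 0.47 (0.0216), hsa_SNORD3@ by -1.29 ± 0.33 (0.00478), U6-snRNA-1 by -1.25 ± 0.44 (0.0237) and SNORD48-5 by -1.01 ± 0.30 (0.0105). The groups did not overlap for 2 of the 13, U6-snRNA-2 and U6B-5, where 36.3% of all names did not overlap. The median change was -1.70 in the brightest quartile of the 816 names by mean signal, which held the 6 called references except SNORD48-5. Of the called references in that quartile, only U6B-5 lay below its median. Over all 816 names the median was -1.0, and the changes of the 6 called references, between -1.75 and -1.01, lay below that. The others did not pass: SNORD44-5 at -1.04 ± 0.48 (adjusted p = 0.0728), hsa_SNORD6 at 0.73 ± 0.34 (0.0788), hsa_SNORD12 at 0.27 ± 0.31 (0.459), hsa_SNORD14B at 0.04 ± 0.31 (0.925), SNORD38B-5 at 0.02 ± 0.43 (0.974), hsa_SNORD2 at -0.11 ± 0.32 (0.796) and hsa_SNORD13 at -0.20 ± 0.37 (0.659). The direction held under VSN (0 higher and 6 lower) and the deposited values (1 and 3, with 94 and 320 of all 816 names). It also held under the 75th percentile over all names (2 and 5, with 192 and 332). With spike-in scaling it was even (1 and 1, with 121 and 140). It turned with quantile normalization (2 and 1, with 63 and 188) and the 75th percentile over names detected on all arrays (8 and 0, with 531 and 11). Without LS7 replicate 4 and SH7 replicate 1 the count was again 6 lower and 0 higher. With scan day as a block in the fit of both groups, the contrast rested on the 1 scan day they share. That day held 1 array of each group, LS7 replicate 5, with the scanner gain of 720, and SH7 replicate 3. Between these arrays U6-snRNA-2 differed by -3.55 and hsa_SNORD6 by 1.10. With scan day as a random block the count was 6 lower. As a block in a fit of all 7 groups, chosen after seeing the data, scan day gave 1 higher and 4 lower. When each of the 10 animals was left out in turn, 5SrRNA-5 was called 8 times and U6-snRNA-1 6 times. Without LS7 replicate 5 the change of 5SrRNA-5 was -0.91.

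Against animals without surgery, LS7 gave 5 lower and 1 higher reference, where 45.7% of all names were lower, 2.94% higher and 48.7% either. The groups did not overlap for 1 reference, U6-snRNA-2, where 23.8% of all names did not overlap. Those lower were U6-snRNA-2 (-1.64 ± 0.46, adjusted p = 0.0122), U6B-5 (-1.51 ± 0.43, 0.0131), hsa_SNORD3@ (-1.37 ± 0.39, 0.0133), 5SrRNA-5 (-1.34 ± 0.49, 0.0382) and SNORD48-5 (-1.02 ± 0.32, 0.0192). The one higher was hsa_SNORD6 (0.93 ± 0.36, 0.0467), of which 3 of 5 LS7 animals and 1 of 5 CT animals were above background. Without LS7 replicate 4 the counts were 0 higher and 5 lower. With quantile normalization 2 references were higher and 1 lower (46 and 137 of all 816 names), and with spike-in scaling 5 and 1 (192 and 80). With the 75th percentile over names detected on all arrays 6 references were higher and 0 lower (430 and 2). Only 3 references were called without CT replicate 2 or without CT replicate 5, 3 lower in each case. When each of the 10 animals was left out in turn, 5SrRNA-5 and hsa_SNORD6 were each called 3 times and SNORD48-5 8 times. The change of 5SrRNA-5 was -0.88 without LS7 replicate 5, and its adjusted p reached 0.0949 without CT replicate 4. LS7 and CT arrays shared 3 scan days with 1 array of each group: on those days U6-snRNA-2 differed by -0.96, -0.28 and -2.62, and hsa_SNORD2 by 0.60, 1.00 and -0.30. With scan day as a block in this pair, limma called 0 references (3 at an unadjusted p under 0.05), where 1 of all 816 names was called higher and 112 lower. The fitted change of U6-snRNA-2 was then -1.29 (adjusted p = 0.097). As a random block it gave 1 higher and 5 lower references, and as a block in the fit of all 7 groups 2 higher and 3 lower, with U6-snRNA-2 at -1.14 (adjusted p = 0.0411).

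At day 1 no reference passed in limma against sham (2 of 13 at an unadjusted p under 0.05, with 0.0% of all names called) although hsa_SNORD3@ differed by 0.90 ± 0.28 (adjusted p = 0.204) and 5SrRNA-5 by -0.62 ± 0.26 (0.515). Against CT, limma called 0 of 13 in LS1, with 6 of 13 at an unadjusted p under 0.05, where 6.25% of all names were called higher and 6.37% in either direction. The groups overlapped for each of the 13 references, where 6.62% of all names did not overlap. The 6 at an unadjusted p under 0.05 were U6-snRNA-1 (1.84 ± 0.56, adjusted p = 0.0788), hsa_SNORD3@ (0.86 ± 0.30, 0.119), hsa_SNORD13 (0.75 ± 0.28, 0.148), U6B-5 (0.95 ± 0.37, 0.163), SNORD44-5 (0.77 ± 0.32, 0.185) and SNORD48-5 (0.82 ± 0.36, 0.209). All of them had the higher mean in LS1. Without LS1 replicate 4, 3 references were called higher, where 103 of all 816 names were higher and 6 lower. With scan day as a block in this pair, the contrast rested on the 1 scan day that LS1 and CT share. That day held 1 array of each group, LS1 replicate 3 and CT replicate 1. Between these arrays U6-snRNA-1 differed by 3.71 and 5SrRNA-5 by -0.59. With scan day as a random block 1 reference was called higher (64 names higher and 1 lower). As a block in the fit of all 7 groups it gave 3 higher (55 and 0). With spike-in scaling 11 references were called higher, where 587 of all names were higher and their median change was 1.11.

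At day 3, limma called 0 of 13 against sham (0 at an unadjusted p under 0.05), where 0.245% of all names were called higher, 4.9% lower and 5.15% in either direction. The groups overlapped for each of the 13 references, where 11.9% of all names did not overlap, and the 13 changes lay between -0.44 and 0.26. Against CT, 0 of 13 were called in LS3 (1 at an unadjusted p under 0.05, with 0.858% of all names called), with changes between -0.27 and 0.78. LS3 replicate 2 was the lowest of its group for U6-snRNA-2, U6B-5, 5SrRNA-5 and hsa_SNORD2, and without it 1 reference was called. The sham groups gave 0 called references against CT at each of the 3 days, with 0, 3 and 0 of 13 at an unadjusted p under 0.05 and 0.0% of all names called at each day. Sham and CT animals overlapped for each of the 13, where 0.368%, 2.08% and 1.96% of all names did not overlap at days 1, 3 and 7.

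The contusion effect differed between days in the 7-group fit. The day 7 effect less the day 1 effect passed for 6 references, where 55.0% of all names passed: hsa_SNORD3@ (-2.19), U6B-5 (-2.17), U6-snRNA-1 (-2.0), U6-snRNA-2 (-1.81), SNORD44-5 (-1.64) and SNORD48-5 (-1.60), of which SNORD44-5 and SNORD48-5 changed sign among the 6 scalings (-1.89 to 1.32 and -2.20 to 1.01). No reference passed for day 7 less day 3 or for day 3 less day 1, where 1.72% and 0.0% of all names did.

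As a measure of stability, the SD of each reference over the 35 arrays was set beside that of all names. It was smallest for hsa_SNORD12 (0.34), hsa_SNORD14B (0.36) and hsa_SNORD2 (0.44). It was 0.54 for hsa_SNORD13, 0.55 for hsa_SNORD6, 0.59 for SNORD38B-5, 0.69 for SNORD48-5, 0.77 for hsa_SNORD3@, 0.79 for 5SrRNA-5 and 0.81 for SNORD44-5. With VSN the U6 probes had the largest values, 0.93 for U6-snRNA-2, 1.00 for U6B-5 and 1.31 for U6-snRNA-1. The median of the 13 was 0.69, against 0.74 over all 816 names and 0.75 over 14 microRNAs often used as endogenous references (miR-103, miR-191, miR-16, miR-423-5p, miR-423-3p, miR-425, miR-93, miR-25, let-7a, let-7i, miR-23b, miR-24, miR-30c and miR-26a). U6-snRNA-1 varied more than 97.1% of all names, and hsa_SNORD12 more than 2.57%. Within groups the median SD of the 13 was 0.53, against 0.59 over all names.

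**Figure D2:**
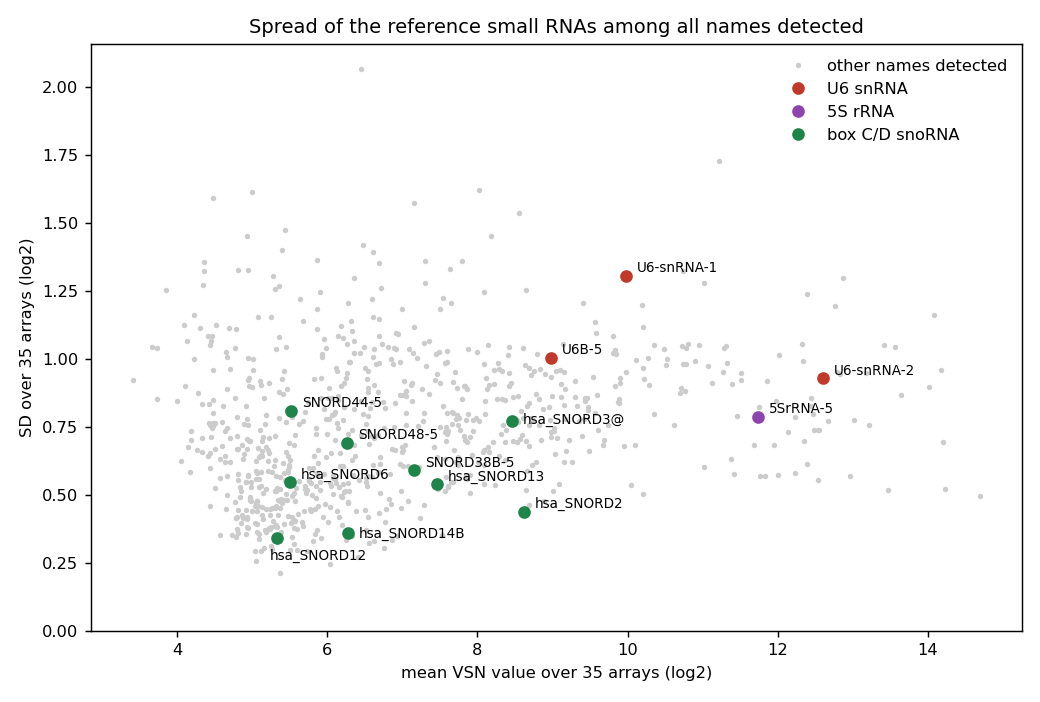
SD over the 35 arrays (log2) against the mean VSN value (log2) of each of the 816 detected names; grey points are microRNAs, coloured points the 13 references by class. The 3 U6 probes lie at 0.93 to 1.31, and hsa_SNORD2 lies at 0.44, with 0 of the 204 names of the brightest quartile below it.

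Signal strength limits how this order can be read, since the spread differed with brightness. In the quartile of names with the brightest mean signal the median SD was 0.85, and in the second dimmest quartile 0.59. hsa_SNORD12 and hsa_SNORD14B lay in that quartile. hsa_SNORD2 lay in the brightest quartile, where 0 of 204 names had a smaller SD. This order depended on the scaling: the number of names in that quartile with a smaller SD than hsa_SNORD2 was 1 with the deposited values, 1 with the 75th percentile over all names, 13 with spike-in scaling, 137 with quantile normalization and 168 with the 75th percentile over names detected on all arrays. U6-snRNA-1 had the largest SD of the 13 under each of the 6 scalings, from 1.05 to 1.58. The SD of U6-snRNA-2 lay between 0.52 and 1.19 and that of U6B-5 between 0.52 and 1.17, and counted from the smallest of the 13, U6-snRNA-2 ranked between 2 and 12 and U6B-5 between 4 and 12.

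Pairwise stability asks whether references keep a constant ratio to each other, in which a constant added to a whole array cancels. The stability value M, the mean SD of a name's log2 difference from each of the other references, was lowest for SNORD48-5 (0.72), hsa_SNORD2 (0.73) and hsa_SNORD13 (0.74). It was highest for U6-snRNA-1 (1.12) and hsa_SNORD6 (0.91). The median M of the 13 was 0.83, against 0.54 for the 14 reference microRNAs among themselves, whose M lay between 0.40 for miR-191 and 0.67 for miR-24. After U6B-5 with U6-snRNA-2, the tightest pairs were hsa_SNORD13 with hsa_SNORD2 (SD of the difference 0.40) and SNORD38B-5 with hsa_SNORD2 (0.42). When the name with the highest M was removed step by step, U6-snRNA-1 was the first to go and hsa_SNORD13 and hsa_SNORD2 were the pair kept. The widest pair was SNORD38B-5 with U6-snRNA-1 (1.46). Without the LS7 group the median M was 0.68.

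Differences between references within an array bear on their unequal change at day 7. The pairs below were chosen with the day 7 changes known, so their values are a description without a test. hsa_SNORD2 less U6-snRNA-2 averaged -2.49 ± 0.49 in LS7, against -4.08 ± 0.23 in SH7 and -4.45 ± 0.39 in CT (SD, n = 5 each). All LS7 animals lay above all SH7 and CT animals, with a difference from SH7 of 1.58. The difference lay between 1.27 and 1.65 under the 6 scalings. hsa_SNORD3@ less hsa_SNORD2 averaged -1.35 ± 0.28 in LS7, against -0.17 ± 0.52 in SH7, and its difference of -1.19 lay between -1.24 and -0.96 under the 6 scalings. By contrast, U6B-5 less U6-snRNA-2 averaged -3.64 ± 0.46 in LS7 and -3.58 ± 0.25 in SH7, a difference of -0.06 that lay between -0.34 and 0.22 under the 6 scalings.

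**Figure D3:**
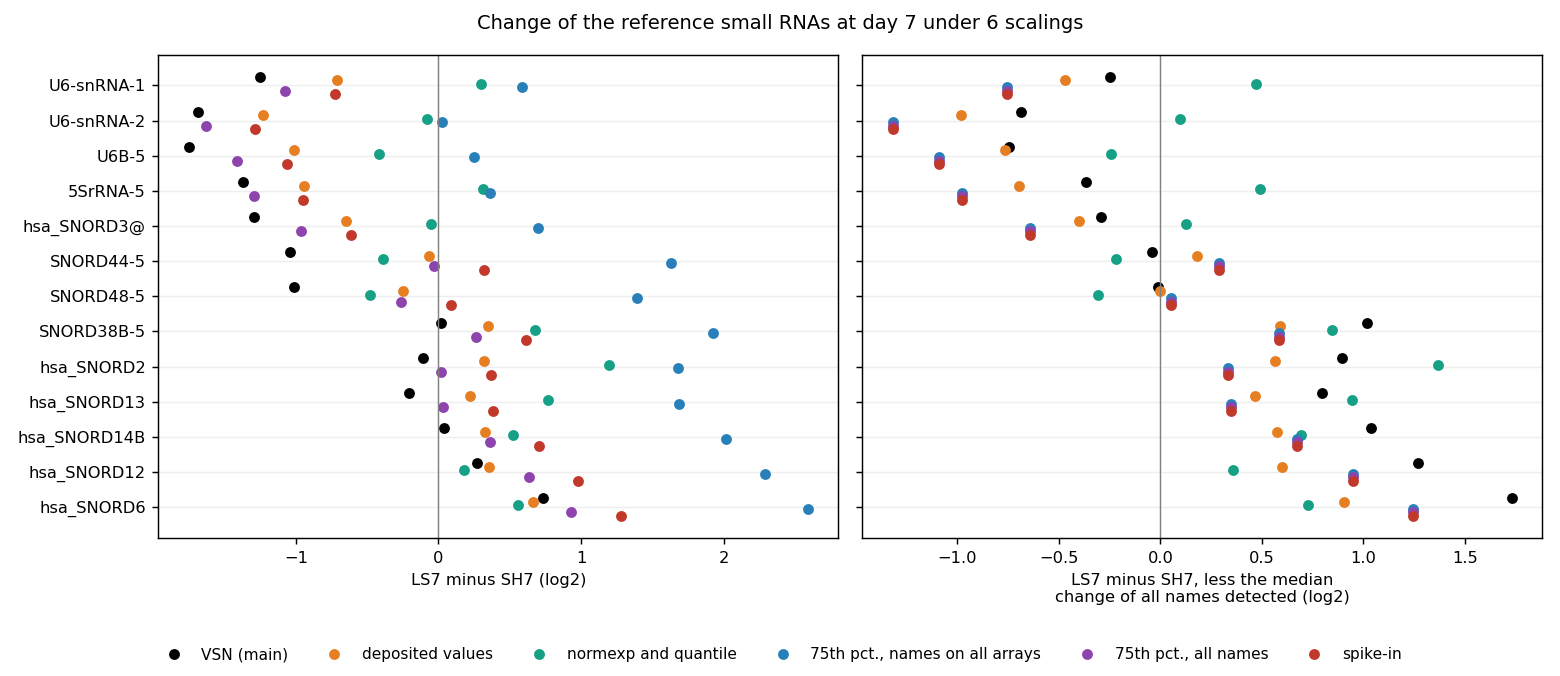
Change of the 13 references, LS7 minus SH7 (log2), under 6 scalings, as such (left) and less the median change of all detected names (right). On the right hsa_SNORD2, hsa_SNORD6, hsa_SNORD12, hsa_SNORD13, hsa_SNORD14B and SNORD38B-5 lie above 0 under each scaling, while the U6 probes lie below 0 except under quantile normalization, where U6-snRNA-1 lies at 0.47 and U6-snRNA-2 at 0.09.

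The direction of a single reference depended on the scaling, which also moved the median of all names. The median change of all names, LS7 minus SH7, was -1.0 with VSN, -0.25 with the deposited values, -0.17 with quantile normalization, -0.32 with the 75th percentile over all names, 0.03 with spike-in scaling and 1.34 with the 75th percentile over names detected on all arrays. With the last of these 8 references were called higher and 0 lower, where 531 of all names were called higher and 11 lower. Relative to the median of all names, 6 references stood above it under all 6 scalings: hsa_SNORD2 by 0.33 to 1.37, hsa_SNORD13 by 0.35 to 0.94, SNORD38B-5 by 0.58 to 1.02, hsa_SNORD14B by 0.57 to 1.04, hsa_SNORD12 by 0.36 to 1.27 and hsa_SNORD6 by 0.73 to 1.73. U6B-5 stood below it under all 6, by -1.09 to -0.24. U6-snRNA-2 stood between -1.32 and 0.09, hsa_SNORD3@ between -0.64 and 0.12, 5SrRNA-5 between -0.98 and 0.49 and U6-snRNA-1 between -0.76 and 0.47, each above 0 under quantile normalization alone.

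The size of the day 7 change also ran with signal over all names. Its median was -0.01 in the dimmest quartile of the 816 names, -0.47 in the next, -1.34 in the third and -1.70 in the brightest. Among names of their own quartile, hsa_SNORD2 had a higher change than 97.1% of them, SNORD38B-5 than 95.1%, hsa_SNORD13 than 91.7%, hsa_SNORD6 than 91.7%, hsa_SNORD12 than 79.4% and hsa_SNORD14B than 71.6%. U6-snRNA-2 and U6B-5 were near the middle of the brightest quartile, at 51.0% and 46.6%. In that quartile 5SrRNA-5 stood at 69.1%, hsa_SNORD3@ at 72.5% and U6-snRNA-1 at 75.5%. SNORD48-5 and SNORD44-5 stood at 31.4% and 28.9% of the second dimmest quartile. The mean VSN value of the neuronal microRNAs was between 8.49 and 10.67 in LS7 and between 11.29 and 12.30 in SH7, that of the oligodendrocyte microRNAs between 8.74 and 11.15 in LS7 and between 11.82 and 12.90 in SH7, that of the posterior neural microRNAs between 7.73 and 10.31 in LS7 and between 10.56 and 11.74 in SH7, and that of the muscle microRNAs between 5.64 and 6.46 in LS7 and between 7.23 and 7.56 in SH7. That of the erythrocyte microRNAs was between 8.24 and 11.51 in LS7 and between 11.04 and 13.53 in SH7, and that of the myeloid microRNAs between 8.78 and 10.77 in LS7 and between 9.10 and 10.90 in SH7. The part of cell composition and of the lower LS7 signal in the change of the references was not tested.

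Set relative to the mean of the 13 detected references, miR-21 read 4.77, 5.77, 6.07, 4.50 and 5.24 in LS7, against 2.69, 2.14, 2.21, 2.07 and 2.48 in SH7. The groups did not overlap, and the difference was 2.95 (log2; 2-sided exact permutation p = 0.00794, the smallest that 5 against 5 animals allow). Without a reference it was 2.28. Against each of the 13 references alone it was positive, between 1.55 with hsa_SNORD6 and 4.03 with U6B-5, and the groups overlapped with none of the 13. hsa_SNORD6 was above background on 3 of 5 LS7 arrays and 2 of 5 SH7 arrays, so values set relative to it rest partly on signals near the background. With hsa_SNORD2 it was 2.39 and with U6-snRNA-2 3.97. With the mean of the 14 reference microRNAs it was 3.76. Without LS7 replicate 4 and SH7 replicate 1 the difference relative to the mean of the 13 was 3.23. At day 3, miR-21 relative to the mean of the 13 averaged 4.53 ± 0.70 in LS3 and 2.92 ± 0.85 in SH3 (SD, n = 5 each), a difference of 1.60 (exact p = 0.00794), and the single references gave 1.23 to 1.93, with no overlap of the groups for 4 of the 13. At day 1 they gave 0.01 to 1.53 against SH1, and the groups overlapped with each of the 13.

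miR-124 relative to the mean of the 13 references read 4.71, 4.15, 4.81, 4.15 and 4.95 in LS3, against 6.33, 6.22, 6.42, 5.55 and 6.40 in SH3. The groups did not overlap, and the difference was -1.63 (2-sided exact permutation p = 0.00794). Against single references it lay between -2.0 with hsa_SNORD3@ and -1.30 with U6B-5, and the groups did not overlap with 11 of the 13. At day 7 the single references gave a wider range, from -3.35 with hsa_SNORD6 to -0.87 with U6B-5, with -1.95 for the mean of the 13, and the groups did not overlap with 10 of the 13. The direction of both microRNAs thus held for each reference at days 3 and 7, and its size at day 7 differed by over 2 units between references.

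**Figure D4:**
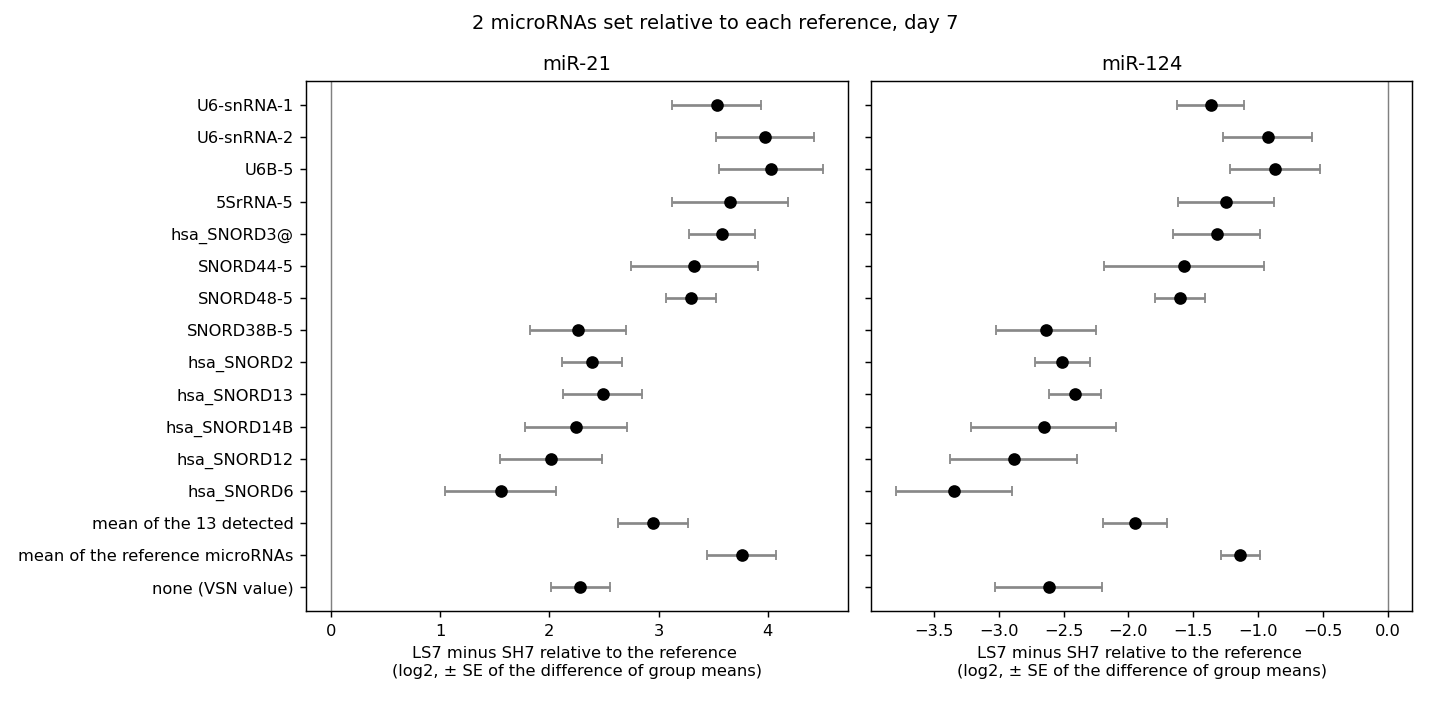
LS7 minus SH7 difference (log2, ± SE of the difference of 2 group means, n = 5 each) of miR-21 (left) and miR-124 (right), relative to each of the 13 references alone, to their mean, to the mean of the 14 reference microRNAs and with no reference. miR-21 lies between 1.55 and 4.03 and miR-124 between -3.35 and -0.87 over the single references.

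The direction of most calls at day 7 turned with the reference. Subtracting a reference moves every name by the opposite of the reference's own change, so this direction was largely set by that change. After the mean of the 13 references was subtracted from each array, limma called 124 names higher and 262 lower in LS7 than in SH7, of 803 names other than the references. With VSN values alone the counts were 50 higher and 435 lower, and with the mean of the 14 reference microRNAs, 288 higher and 59 lower of 789. Single references that were called lower in LS7 gave mostly higher names: U6B-5 gave 311 higher and 9 lower, U6-snRNA-2 275 and 8, hsa_SNORD3@ 220 and 52, U6-snRNA-1 135 and 43, and 5SrRNA-5 124 and 17. SNORD48-5 gave 202 higher and 142 lower. Single references that were not called gave mostly lower names, except SNORD44-5: hsa_SNORD6 gave 1 higher and 581 lower, hsa_SNORD12 3 and 456, hsa_SNORD2 29 and 427, SNORD38B-5 5 and 365, hsa_SNORD14B 9 and 359, and hsa_SNORD13 13 and 357. Of these, hsa_SNORD6 was above background on 3 of 5 arrays in LS7 and 2 of 5 in SH7, and hsa_SNORD12 on 1 of 5 in each. SNORD38B-5 and hsa_SNORD14B were each above background on 3 of 5 arrays in LS7 and 5 of 5 in SH7. SNORD44-5 gave 3 higher and 0 lower (184 at an unadjusted p under 0.05), its own SD in LS7 being 1.17. With only the 6 references detected on all arrays, the counts were 134 higher and 154 lower. Without LS7 replicate 4 and SH7 replicate 1, the mean of the 13 gave 101 higher and 170 lower.

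**Figure D5:**
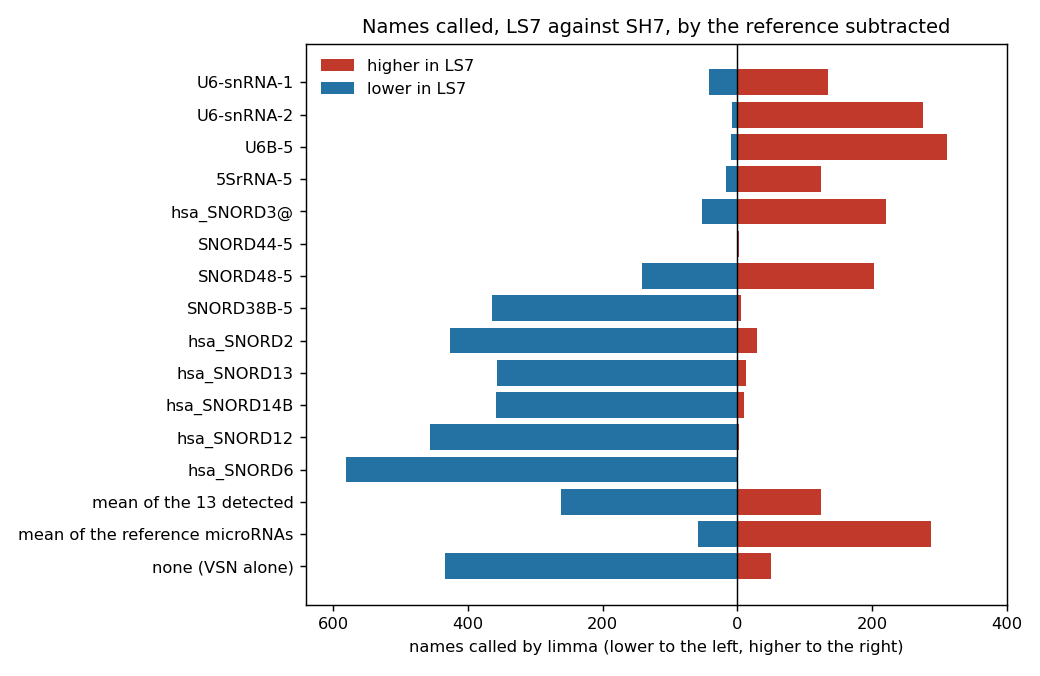
Number of names called by limma, LS7 against SH7, after each reference was subtracted from each array; bars to the right are names higher in LS7 and bars to the left names lower in LS7. The bars run from 311 higher and 9 lower with U6B-5 to 1 higher and 581 lower with hsa_SNORD6, which was above background on 3 of 5 LS7 and 2 of 5 SH7 arrays.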

How the data were processed

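Total RNA of 35 animals was hybridized to 1 Exiqon miRCURY LNA v.11 array each, labelled with Hy3. The scanner output files hold, as deposited, the intensity of each spot as foreground and local background medians at 532 nm (green) and 635 nm (red), written by GenePix Pro without normalization (version 5.0.1.24 on 32 arrays and 6.0.1.00 on 3). They also hold, per the file headers, a flag score per spot, in which -100 stands for a bad spot. The deposited value table holds log2 values that the authors made by VSN from the green foreground, and it was used as an alternative. The file of LS1 replicate 1 writes the same intensity values with decimal commas, an other number format that was read as deposited. The sample in the red channel is not given in the sources used here.

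Green foreground less local background was taken per spot, bad spots were dropped (20 spots of the references over all arrays), and VSN was fitted in Python 3.11.15 on 6959 microRNA spots, keeping 0.9 of them in the trimmed fit. Replicate spots of a name were summarised by their median. VSN and limma were tested on simulated data. Detection on an array required a share of spots over 0.5 lying 2 SD above the average of 28 negative controls. Groups were compared with limma 3.58.1 in R 4.3.3, each pair fitted on its 10 arrays, with Benjamini-Hochberg adjustment over all 816 names and a limit of 0.05. The interquartile filter of the study (above 0.5) was left out, because it removes stable names, and served as an alternative. Single values were compared by 2-sided exact permutation over animals. Precision is bounded by how many arrays there are, and p-values measure the spread between animals. Scan day, as the file headers give it, split the arrays into 13 days of at most 4.

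Every detected reference is named with its values, and the others by name and count. The references, the lists and the tests were chosen with earlier results of these data known. Alternatives were other background corrections and scalings (deposited values, normexp with an offset of 50 and quantile normalization, 75th percentile scaling, spike-in scaling), other filters, array weights, scan day and replicate number as blocks, other references, and leaving out each animal.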

Additional observations from a re-analysis of the deposited data

Results flagged for a closer look

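On single arrays, 7 values among 91 groups of 5 arrays stood further from the rest of their group than Dixon's 95% limit of 0.71, where chance flags about 1 in 20 groups. Of these, 3 were on LS3 replicate 2: U6-snRNA-2 at 10.78 (the other LS3 arrays 12.77 to 13.54), U6B-5 at 6.89 (8.95 to 9.48) and hsa_SNORD2 at 7.84 (9.18 to 9.50). The others were SNORD48-5 on SH1 replicate 4 at 7.71 (5.89 to 6.41), hsa_SNORD12 on LS7 replicate 3 at 4.69 (5.81 to 5.92), hsa_SNORD13 on LS1 replicate 5 at 7.28 (7.73 to 7.89) and 5SrRNA-5 on CT replicate 4 at 12.68 (11.61 to 11.86).

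The contusion effect at day 7 less that at day 1 passed limma's test of the difference for SNORD44-5 (-1.64), SNORD48-5 (-1.60), U6-snRNA-1 (-2.0), U6-snRNA-2 (-1.81), U6B-5 (-2.17) and hsa_SNORD3@ (-2.19), where 449 of all 816 names passed. Over the 6 scalings the difference kept its sign for the 3 U6 probes (-3.29 to -0.09, -3.23 to -0.02 and -3.30 to -0.09, in the order U6-snRNA-1, U6-snRNA-2, U6B-5) and for hsa_SNORD3@ (-3.29 to -0.08). It changed sign for SNORD44-5 (-1.89 to 1.32) and SNORD48-5 (-2.20 to 1.01). In either direction, the difference passed under 4 of the 6 scalings for U6B-5, hsa_SNORD3@ and SNORD48-5, under 3 for U6-snRNA-2 and SNORD44-5 and under 2 for U6-snRNA-1.

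The red channel, left out of the comparisons above, held signal above its negative controls for 9 of the 13 detected references on all 35 arrays. The red SD over arrays was smaller than the green one for 11 of the 13, with a median of 0.36 in red and 0.69 in green. In red, LS7 minus SH7 lay between -0.53 for hsa_SNORD13 and 0.35 for 5SrRNA-5, and the smallest 2-sided exact permutation p of the 13, not adjusted, was 0.0873.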

How the results depend on the processing

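The counts of called references depended on scaling and on scan day, and the causes were not tested. With normexp and quantile normalization limma called 3 references in LS7 against SH7 (2 higher, 1 lower), 3 in LS7 against CT (2 higher, 1 lower) and 1 in LS3 against CT. With the 75th percentile over names detected on all arrays it called 11 over the 7 groups, 8 in LS7 against SH7 (8 higher, 0 lower), 6 in LS7 against CT (6 higher, 0 lower) and 1 in LS3 against CT, and SNORD48-5 turned to 1.40 in LS7 against SH7. With spike-in scaling it called 13 in LS1 against SH1 (809 of all 816 names were higher, median change 1.84), 11 in LS1 against CT (587 were higher, median change 1.11), 2 in LS7 against SH7 (1 higher, 1 lower) and 6 in LS7 against CT (5 higher, 1 lower). The deposited values gave 1 higher and 3 lower in LS7 against SH7, and the 75th percentile over all names 2 higher and 5 lower. The counts over all names for LS7 against SH7 and against CT under these scalings are given with those comparisons above. Without a detection filter all 26 reference names were tested among 1766, and 10 were called in LS7 against SH7 (4 higher, 6 lower). The 26 include the 13 names not detected, which give no level here. Scan day as a block left 0 in LS7 against CT. In LS7 against SH7 and in LS1 against CT it left 1 array of each group for the contrast, so no count is given. As a random block, scan day gave 1 in LS1 against CT and 3 in LS3 against CT. In a fit of all 7 groups, chosen after seeing the data, it gave 3 in LS1 against CT, 5 in LS7 against SH7 (1 higher, 4 lower) and 5 in LS7 against CT (2 higher, 3 lower). Array weights gave 1 in LS1 against SH1, 2 in LS1 against CT and 1 in LS3 against CT. Scan day as a block was not run for LS1 against SH1 and SH3 against CT, nor as a random block for SH3 against CT.

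Leaving out 1 animal gave 7 to 8 called over the 7 groups, 0 to 1 in LS1 against SH1 (1 without SH1 replicate 4), 4 to 7 in LS7 against SH7, 0 to 3 in LS1 against CT (3 without LS1 replicate 4, 1 without CT replicate 5), 0 to 1 in LS3 against CT (1 without LS3 replicate 2) and 3 to 7 in LS7 against CT. The names called after scaling numbered 347 with the reference microRNAs and, with single references tried after seeing the data, 141 with 5SrRNA-5, 3 with SNORD44-5, 344 with SNORD48-5, 178 with U6-snRNA-1, 283 with U6-snRNA-2, 320 with U6B-5, 272 with hsa_SNORD3@ and 582 with hsa_SNORD6, and 296 to 435 without 1 animal. The median SD of the 13 references was 0.37 with the deposited values, 0.38 with quantile normalization, 0.46 with the 75th percentile over all names and 1.04 with spike-in scaling, and 0.59 to 0.70 without 1 animal. The median M was 0.61, 0.59 and 0.68 with the deposited values, with quantile normalization and without the LS7 group, and 0.75 to 0.84 without 1 animal.

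The sample labels do not say whether the replicate numbers pair the animals. Correlations of same-numbered animals lay between -0.67 and 0.65. Their mean ran from -0.30 in LS1 against SH1 to 0.37 in LS3 against CT. With the replicate number as a block, 6 references were called in LS7 against SH7 and 4 in LS7 against CT. The relative change of miR-21 was 2.95 and that of miR-124 -1.63 in this paired form, each with an exact p of 0.0625, the smallest that 5 pairs allow. Without 1 animal they lay between 2.75 and 3.14 and between -1.79 and -1.53.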
